A study of Drosophila melanogaster with 30 samples.

Results

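The left arm of the second *Drosophila* chromosome, 2L, is described here over its first 20 Mb, counted from the free end of the arm towards the centromere in the dm3 genome. Its members are all 300-bp bins of 2L with a start up to 20000000. These are 66667 of the 464488 bins that tile every sequence with a listed bin, as far as the last such bin. That total, called all sequence below, includes heterochromatic and unplaced scaffolds. Bins were taken by position alone, but this part of 2L was chosen with earlier results of these data known. MNase accessibility (MACC) was compared between *Drosophila* S2 cells, a cultured line of embryonic origin, and stable S2 lines that overexpress polyhomeotic. These express either a polymerization defective form (PH-ML, named PH-mut in the labels) or wild type polyhomeotic (PH-WT). Both proteins carry a biotin acceptor and a FLAG tag and are driven by the metallothionein promoter, which responds to copper. The labels give the same growth and copper induction for all 3 lines, S2 cells included, and all of them still had their own *ph-p* and *ph-d* genes. Each line has 10 MNase-seq libraries, 5 from each of 2 independent experiments, with MNase amounts labelled 1.65, 6.25, 25, 100 and 400, which makes 30 libraries in all. Whether each stable line is a clone or a pool is not given in the sources used here. Each protein was expressed in a single line. An effect of the protein therefore cannot be told apart from another difference between the lines. The lists hold no measure of chromatin marks or gene expression, so that neither the euchromatic state of the arm nor the identity of the cells was checked, and the sequence is called by its position.

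Polyhomeotic is a subunit of Polycomb Repressive Complex 1, which keeps developmental genes silent and compacts chromatin. Its SAM domain joins PH molecules head to tail, and this polymerization holds distant PH-bound sites together. In PH-ML the mid-loop surface of the domain is changed, so that PH-ML caps the growing polymer even where wild type PH is present. The arm 2L carries well known Polycomb target genes such as *wingless*, *decapentaplegic*, *odd-skipped* and *spalt major*, which encode signaling molecules and transcription factors of the embryo. Their positions in dm3 were not used here, and no bin below is assigned to a gene. MACC is the slope of the released reads in a bin against the logarithm of the MNase amount after correction for GC content, and a higher slope stands for chromatin that MNase opens more easily.

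The authors deposited, for each pair of lines, the bins that they called different and the name of the line with the higher MACC. The lists give neither MACC scores nor p-values, both experiments are pooled in them, and the test and threshold behind a call are not given in the sources used here. Depth per bin is unknown. Thus no spread between replicates and no test over samples could be computed, and every difference below is a description of the authors' calls. The 95% Wilson intervals of shares cover counting error only, because neighboring bins are not independent. The 3 comparisons share cell lines, so that a bin listed in 2 of them is not independent evidence.

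On the first 20 Mb of 2L, 1148 different bins, or 1.72%, were on at least 1 of the 3 lists, beside 1.62% of all sequence. In PH-ML against S2, 99 bins were listed, or 0.148% of the arm, beside 0.174% of all sequence, which here and below includes 2L. Of these, 83 were more accessible in PH-ML–expressing cells (0.124% of the arm, beside 0.129% of all sequence) and 16 were more accessible in S2 cells (0.0240%, beside 0.0452%). Per Mb these are 4.15 bins with PH-ML above S2 and 0.800 bins with S2 above PH-ML. The share that was higher in PH-ML was 83.8% (95% Wilson interval 75.3% to 89.8%). Most calls of this comparison on 2L thus had PH-ML as the more accessible line.

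In PH-WT against S2 the majority had the opposite direction. The list holds 193 bins of the arm, or 0.289%, beside 0.305% of all sequence. MACC was higher in PH-WT–expressing cells at 51 bins (0.0765%, beside 0.0721%) and higher in S2 cells at 142 bins (0.213%, beside 0.233%). Per Mb these are 2.55 bins with PH-WT above S2 and 7.10 with S2 above PH-WT, and the share higher in PH-WT was 26.4% (20.7% to 33.1%). PH-WT–expressing cells were therefore listed mostly as less accessible than S2 cells on 2L.

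The direct comparison of PH-ML with PH-WT gave the longest list, with 1054 bins or 1.58% of the arm, beside 1.49% of all sequence. MACC was higher in PH-ML–expressing cells at 574 bins (0.861%, beside 0.788%) and higher in PH-WT–expressing cells at 480 bins (0.720%, beside 0.707%). The densities were 28.7 and 24.0 bins per Mb. The share higher in PH-ML was 54.5% (51.4% to 57.4%), so that both directions were nearly balanced over the arm as a whole. Along the arm they were not.

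The directions changed from window to window along the arm, as the plot of listed bins per 1 Mb shows. For PH-ML against PH-WT every one of the 20 windows of 1 Mb held bins of both directions, with 15 to 106 bins per window and a median of 49.5. PH-ML had more of the higher bins in 14 windows, PH-WT had more in 5, and 1 window was even. The fullest window was 0 to 1 Mb, with 63 bins higher in PH-ML and 43 in PH-WT. Bins higher in PH-WT were most numerous from 6 to 7 Mb, with 59. The emptiest window was 14 to 15 Mb, with 9 bins higher in PH-ML and 6 in PH-WT. The most one-sided window in favor of PH-ML was 15 to 16 Mb, with 22 bins higher in PH-ML and 4 in PH-WT, a share of 84.6% (66.5% to 93.8%).

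**Figure D1:**
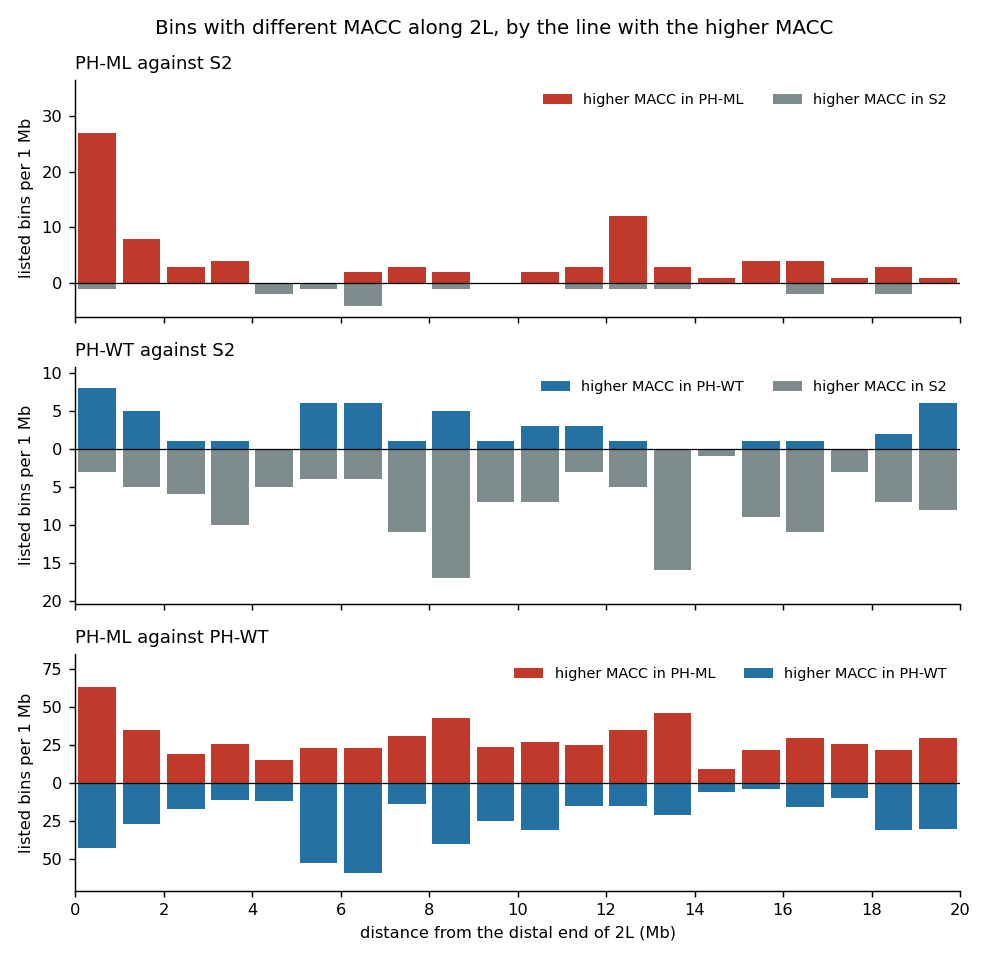
Number of listed 300-bp bins in each window of 1 Mb (vertical axis) against the distance from the distal end of 2L in Mb, for the 3 comparisons. Bars above the line count bins higher in the line named first and bars below it those higher in the other line; the first window stands out for PH-ML against S2 with 27 bins, and the windows from 5 to 7 Mb for PH-ML against PH-WT with 53 and 59 bins higher in PH-WT.

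The windows from 5 to 7 Mb, which were singled out after their values were seen, had the opposite balance in all 3 comparisons. For PH-ML against PH-WT, 46 bins were higher in PH-ML and 112 in PH-WT, so that 29.1% were higher in PH-ML (22.6% to 36.6%). Over the rest of the arm the numbers were 528 and 368, a share of 58.9% (55.7% to 62.1%). Between 5 and 7 Mb on the list for PH-WT against S2, 12 bins were higher in PH-WT and 8 in S2, against 39 and 134 over the rest of the arm. For PH-ML against S2, 2 bins were higher in PH-ML and 5 in S2, against 81 and 11 elsewhere. PH-WT was thus the line more often listed with the higher MACC in this stretch, and PH-ML the line more often listed with the lower MACC. The counts against S2 are small, and their intervals are wide, from 38.7% to 78.1% higher in PH-WT and from 8.22% to 64.1% higher in PH-ML.

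Within these 2 Mb the bins were densest between 5900001 and 6100000. That part held 13 bins higher in PH-ML and 41 in PH-WT for the direct comparison, and 5 bins higher in PH-WT and 1 in S2 for PH-WT against S2. The other 18 windows of 100 kb still held 33 bins higher in PH-ML and 71 in PH-WT, a share of 31.7%. For PH-WT against S2 these 18 windows held 7 bins higher in PH-WT and 7 in S2. Outside the densest part PH-WT thus had the majority against PH-ML, but not against S2.

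In windows of 5 Mb the share with PH-ML above PH-WT was 59.0% from 0 to 5 Mb (53.0% to 64.7%), 43.0% from 5 to 10 Mb (37.8% to 48.3%), 61.7% from 10 to 15 Mb (55.3% to 67.8%) and 58.8% from 15 to 20 Mb (52.2% to 65.1%). The interval of the window from 5 to 10 Mb lies below those of the other 3. All of them treat bins as independent, which neighboring bins are not, so that this is no test of a difference. From 7 to 10 Mb, which leaves out the windows described above, the counts were 98 bins higher in PH-ML and 79 in PH-WT, a share of 55.4% (48.0% to 62.5%). PH-ML against S2 had its lowest share in the same window, with 7 bins higher in PH-ML and 6 in S2, of which 5 and 1 lay from 7 to 10 Mb. In the other windows the counts for PH-ML and S2 were 42 and 3 from 0 to 5 Mb, 21 and 3 from 10 to 15 Mb, and 13 and 4 from 15 to 20 Mb. PH-WT against S2 kept a majority on the side of S2 in all 4 windows, with 15 bins higher in PH-WT and 29 in S2 from 0 to 5 Mb, 19 and 43 from 5 to 10 Mb, 7 and 32 from 10 to 15 Mb, and 10 and 38 from 15 to 20 Mb. The share higher in PH-WT was 34.1% (21.9% to 48.9%) in the first of these windows and 20.8% (11.7% to 34.3%) in the last, with intervals that overlap.

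Against S2, the list for PH-ML was uneven along the arm. Its windows of 1 Mb held 0 to 28 bins with a median of 3.5, and the window from 9 to 10 Mb held none. Higher MACC in PH-ML prevailed in 16 windows and higher MACC in S2 in 3, from 4 to 7 Mb. The window at the distal end held 27 bins higher in PH-ML and 1 in S2. The next was 12 to 13 Mb, with 12 bins higher in PH-ML and 1 in S2. The S2-higher bins were never dense, since no window of 1 Mb held more than 4 of them and 10 of the 20 windows held none. The window with 4 was 6 to 7 Mb.

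The windows of 1 Mb held 1 to 22 bins with a median of 10 for PH-WT against S2. Higher MACC in PH-WT prevailed in 3 windows, higher MACC in S2 in 15, and 2 were even. The fullest was 8 to 9 Mb, with 5 bins higher in PH-WT and 17 in S2. Between 13 and 14 Mb all 16 listed bins were higher in S2, and the neighboring window from 14 to 15 Mb held 0 higher in PH-WT and 1 in S2. PH-WT prevailed only at the distal end, where the first window held 8 bins higher in PH-WT and 3 in S2, and in the windows from 5 to 6 Mb and 6 to 7 Mb, each of which held 6 bins higher in PH-WT and 4 in S2.

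From 12 to 14 Mb the lists leaned the other way than from 5 to 7 Mb. This stretch, too, was picked after its values were seen. There PH-ML against PH-WT gave 81 bins higher in PH-ML and 36 in PH-WT, a share of 69.2% (60.4% to 76.9%). For PH-ML against S2 it held 15 bins higher in PH-ML and 2 in S2, and for PH-WT against S2 it held 1 bin higher in PH-WT and 21 in S2.

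At the distal end of the arm PH-ML was the line with the higher MACC almost without a break. The longest run of adjacent bins on the arm covers 16 bins from 301 to 5100, and all 16 had PH-ML above both S2 and PH-WT on the lists. After a gap of a single bin, the bins from 5401 to 6000 follow, both of which had PH-ML above S2 and 1 of which, from 5701, also had PH-ML above PH-WT. Only 1 bin of this part, from 4501 to 4800, was listed for PH-WT against S2, as higher in PH-WT. At this bin the 3 lists give the order PH-ML, PH-WT, S2 from high to low. The first bin of the arm, from 1 to 300, was on none of the 3 lists.

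Further from the tip the picture was mixed. The terminal 100 kb held 19 bins higher in PH-ML and 0 in S2, of which 18 lie in the first 6.0 kb. In the same 100 kb PH-ML against PH-WT gave 24 bins higher in PH-ML, 17 of them in the first 6.0 kb, and 3 higher in PH-WT. There PH-WT against S2 gave 1 bin higher in PH-WT and 0 in S2. From 100 kb to 1 Mb the direct comparison was balanced, with 39 bins higher in PH-ML and 40 in PH-WT. The same part held 8 bins higher in PH-ML and 1 in S2, and 7 bins higher in PH-WT and 3 in S2. Without the terminal 100 kb the share with PH-ML above S2 was 80.0%, against 83.8% with it.

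**Figure D2:**
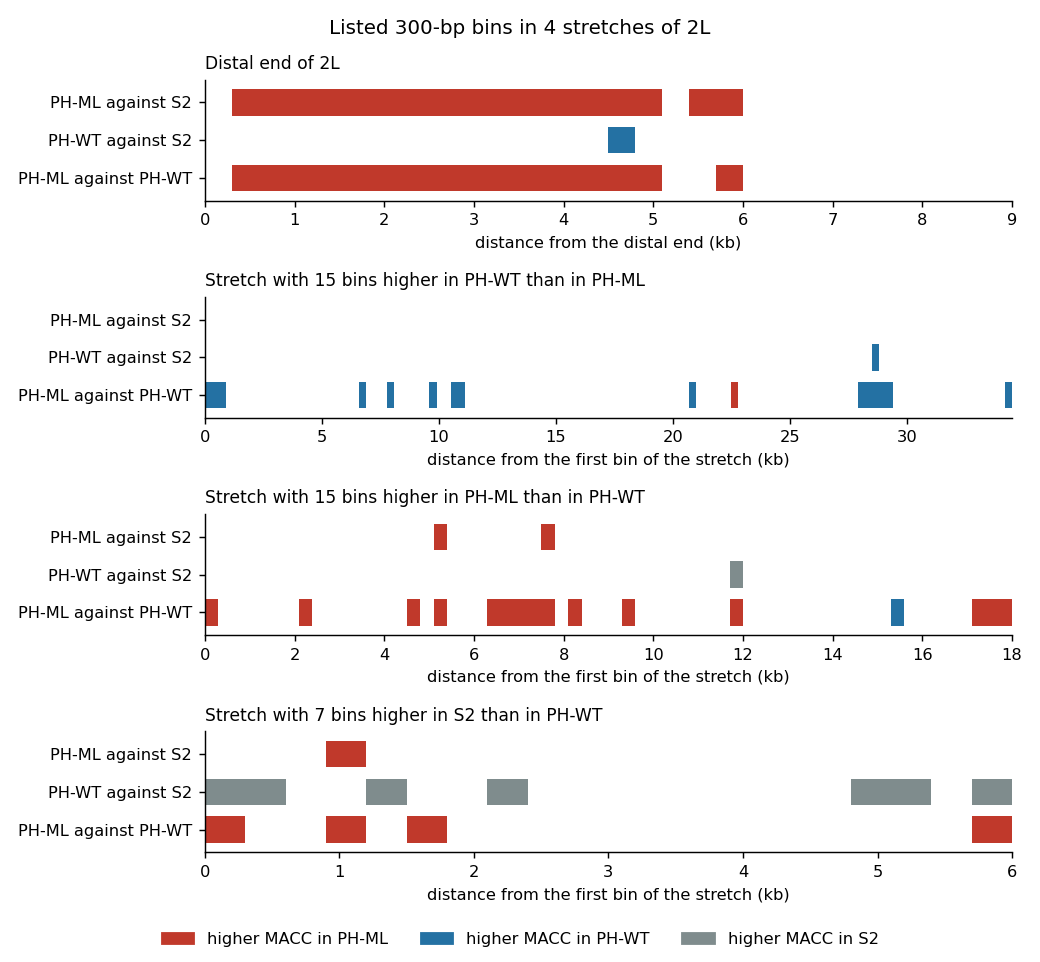
Listed 300-bp bins in 4 stretches of 2L, with the distance from the first bin in kb on the horizontal axis (from the distal end in the top panel) and a row for each comparison; color gives the line with the higher MACC. In the top panel the red block spans 16 bins for both PH-ML against S2 and PH-ML against PH-WT, whereas PH-WT against S2 has 1 bin, and in the panel of the stretch from 6037501 to 6072000 15 bins with PH-WT above PH-ML are spread over 34.5 kb with 1 bin of the opposite direction.

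Away from the tip, runs were short. Of the 54 runs with PH-ML above S2, 43 were a single bin, 8 had 2 bins and 3 had more. Besides the distal run these were 2 runs of 4 bins, from 12045001 to 12046200 and from 16485901 to 16487100. All 4 bins of the first and 3 of the second also had PH-ML above PH-WT, and none was listed for PH-WT against S2. In the opposite direction 14 of 15 runs were a single bin, and the longest had 2 bins, from 16286101 to 16286700, which were on no other list. The first single bins were from 487201 to 487500 and from 4690501 to 4690800, and each of them also had PH-WT above PH-ML. The densest stretch in this direction, with bins at most 10 kb apart, ran from 6878701 to 6882000 and held 3 bins with S2 above PH-ML. In the same 3.3 kb 5 bins had PH-WT above PH-ML. This stretch makes up the fullest window of 100 kb in this direction, from 6800001 to 6900000, with 0 bins higher in PH-ML and 3 in S2.

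For PH-WT against S2, 40 of 45 runs higher in PH-WT and 105 of 123 runs higher in S2 were a single bin. The longest run in either direction had 3 bins. The one higher in PH-WT, from 19575001 to 19575900, belongs to a stretch of 6 such bins from 19571701 to 19576800. In this stretch 3 bins also had PH-WT above PH-ML, and none was listed for PH-ML against S2. The stretch lies in the fullest window of 100 kb with PH-WT above S2, from 19500001 to 19600000, which held 6 bins higher in PH-WT and 0 in S2. There are 4 runs of 2 bins with PH-WT above S2. Both bins also had PH-WT above PH-ML in those from 480001 to 480600, from 8246701 to 8247300 and from 10334401 to 10335000, and neither bin did in that from 19576201 to 19576800.

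The longest run with S2 above PH-WT lies from 15913201 to 15914100, and all 3 of its bins also had PH-ML above PH-WT. The fullest stretch with this direction, from 3202801 to 3208800, held 7 bins with S2 above PH-WT. In the same 6.0 kb PH-ML was higher than PH-WT at 4 bins and higher than S2 at 1 bin. The stretch includes 2 of the 17 runs of 2 bins with this direction, from 3202801 to 3203400 and from 3207601 to 3208200. PH-WT was thus not the higher line at any listed bin of this stretch. By position, 3 windows of 100 kb shared the highest count of 7 bins with S2 above PH-WT, and the first of them, from 3200001 to 3300000, contains this stretch.

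For PH-ML against PH-WT, 366 of the 446 runs higher in PH-ML, or 82.1%, and 297 of the 375 runs higher in PH-WT, or 79.2%, were a single bin. Runs of 3 or more bins numbered 24 and 22. After the distal run, the longest with a higher MACC in PH-ML have 6 bins, from 19353001 to 19354800, and 5 bins, from 13074001 to 13075500. In the 6-bin run 1 bin also had PH-ML above S2 and 2 had S2 above PH-WT. The 5-bin run holds 1 bin with PH-ML above S2 and belongs to a stretch from 13067701 to 13085700. There 15 bins were higher in PH-ML and 1 in PH-WT, 2 bins had PH-ML above S2, and 1 had S2 above PH-WT.

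The longest run with PH-WT above PH-ML has 5 bins, from 6065401 to 6066900, and 1 of them also had PH-WT above S2. It lies in the fullest stretch of this direction, from 6037501 to 6072000, which held 15 bins higher in PH-WT and 1 in PH-ML and no bin listed for PH-ML against S2. There are 3 runs of 4 bins. In the run from 6098101 to 6099300 1 bin also had S2 above PH-ML, and in the run from 6966301 to 6967500 2 bins also had PH-WT above S2. The run from 8540701 to 8541900 was on neither of the other lists, so that 3 of these 4 runs lie between 6 and 7 Mb.

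Windows of 100 kb showed where the direct comparison was densest. The fullest with PH-ML above PH-WT were the terminal window, with 24 bins higher in PH-ML and 3 in PH-WT, and the window from 1600001 to 1700000, with 21 and 3. The window from 1600001 also held 6 bins with PH-ML above S2, whereas its bins for PH-WT against S2 were split, with 1 higher in PH-WT and 2 in S2. The fullest with PH-WT above PH-ML were the windows from 5900001 to 6000000, with 6 bins higher in PH-ML and 21 in PH-WT, and from 6000001 to 6100000, with 7 and 20. In the window from 100001 to 200000 the lists did not point to a single line, since 15 bins were higher in PH-ML and 7 in PH-WT, while 5 bins had PH-WT above S2 and none was listed for PH-ML against S2.

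The lists differed in how far they reached over the arm, but also in length, with 99, 193 and 1054 bins on it. A shorter list leaves more windows empty and longer gaps, so that the values below follow in part from length. No correction for length was made. Of 200 windows of 100 kb, 157 held no bin for PH-ML against S2, 122 held none for PH-WT against S2 and 40 held none for PH-ML against PH-WT. The direct comparison had both directions in 97 windows, only PH-ML higher in 32 and only PH-WT higher in 31. For PH-WT against S2 only PH-WT was higher in 18 windows, only S2 in 48, and both occurred in 12. PH-ML against S2 had both directions in 1 window. To reach 50% of the listed bins took the 8 fullest windows for PH-ML against S2, 21 for PH-WT against S2 and 34 for PH-ML against PH-WT. The longest part of the arm with no bin on any list runs from 16890001 to 17368800, or 478.8 kb. The longest gap was 1621 kb for PH-ML against S2, from 8535601 to 10156800, and 1228 kb for PH-WT against S2, from 13576501 to 14804400.

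How close bins of a direction lay to each other differed between the lists, but so did their number. The groups ranged from 16 bins with S2 above PH-ML to 574 with PH-ML above PH-WT. A smaller group has larger distances even where its bins are spread alike, and no correction for number was made. The median distance from a bin to the nearest of the same list and direction was 0.600 kb for those with PH-ML above S2 and 228.3 kb for the 16 bins higher in S2. It was 5.40 kb for bins with PH-WT above S2 and 1.80 kb for those higher in S2. For both directions of PH-ML against PH-WT it was 1.20 kb. Another bin of the same direction lay within 10 kb of 80.8% of the bins higher in PH-ML and of 74.4% of those higher in PH-WT. Against S2 this share was 77.1% for bins higher in PH-ML and 43.8% for those higher in S2, and it was 58.8% for bins higher in PH-WT and 75.4% for those higher in S2. Of the 51 bins with PH-WT above S2, 16 lay more than 100 kb from the nearest of their direction.

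Whether neighbors had the same direction depended on their distance, as the plot of direction against distance shows. For PH-ML against PH-WT, adjacent listed bins had the same line higher in 233 of 236 pairs, or 98.7% (96.3% to 99.6%). Between 300 bp and 1 kb the share was 81.5% of 119 pairs (73.6% to 87.5%), between 1 and 10 kb it was 69.4% of 366 pairs (64.5% to 73.9%), and beyond 10 kb 166 of 332 pairs had the same direction (44.7% to 55.3%). For PH-WT against S2 the shares in the same order were 100%, 91.3%, 89.4% and 60.8%. For PH-ML against S2, all 49 pairs within 10 kb and 31 of 49 pairs beyond 10 kb had the same direction. The distal stretch from 301 to 6000, with 18 bins, gave many of the close pairs. A list with a majority direction has many pairs alike at any distance. On the arm 83.8% of bins were higher in PH-ML for PH-ML against S2, and 26.4% were higher in PH-WT for PH-WT against S2. The agreement that such majorities alone would give was not computed. Successive pairs share bins, so that the intervals cover counting error only.

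**Figure D3:**
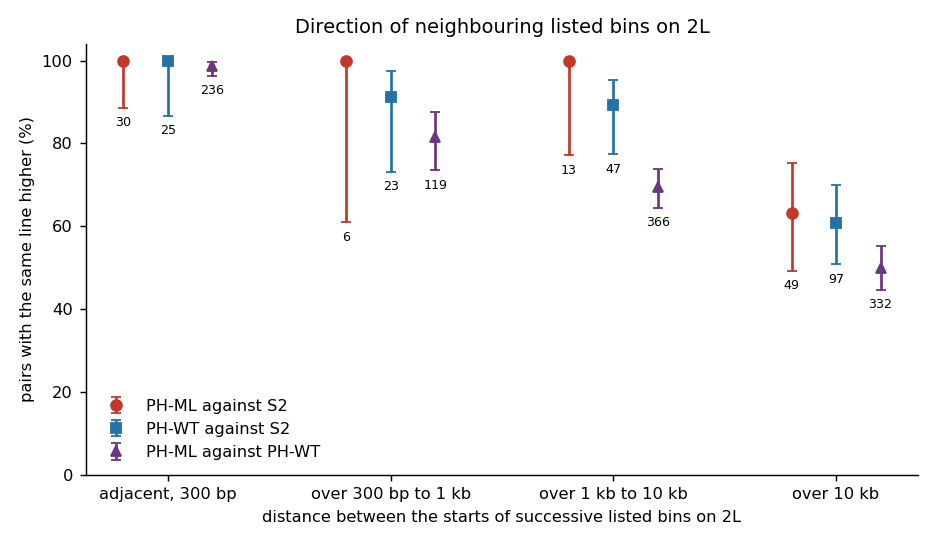
Share of successive listed bins on 2L in which the same line has the higher MACC (vertical axis, %) against the distance between their starts, for the 3 comparisons, with 95% Wilson intervals and the number of pairs under each point. For PH-ML against PH-WT the share is 98.7% for adjacent bins, and 166 of 332 pairs beyond 10 kb have the same direction.

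Beside the first 20 Mb of 3L and X, whose coordinates also begin at the free end, 2L lay between both in density of listed bins. Depth per bin is unknown on each arm, so that bins of different arms need not have been equally easy to call. PH-ML against S2 gave 4.95 listed bins per Mb on 2L, against 7.70 on 3L, 3.10 on X and 5.81 over all sequence. PH-WT against S2 gave 9.65 on 2L, against 12.5 on 3L, 8.50 on X and 10.2 over all sequence. PH-ML against PH-WT gave 52.7 on 2L, against 58.1 on 3L, 29.8 on X and 49.8 over all sequence. The number of bins with PH-ML above PH-WT was 574 on 2L and 575 on 3L, whereas bins higher in PH-WT numbered 480 on 2L and 588 on 3L.

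The share with PH-ML above S2 was 83.8% on 2L, against 77.3% on 3L (70.0% to 83.2%) and 77.4% on X (65.6% to 86.0%), with overlapping intervals. Over all sequence it was 74.1% (70.9% to 77.0%). The share with PH-WT above S2 was 26.4% on 2L, against 22.4% on 3L (17.7% to 28.0%), 44.1% on X (36.9% to 51.6%) and 23.6% over all sequence (21.5% to 25.9%). The interval of 2L, 20.7% to 33.1%, does not overlap that of X, but both treat bins as independent, which neighboring bins are not. On X the 75 bins with PH-WT above S2 formed 45 runs, the longest of 11 bins, and the 95 higher in S2 formed 70. On 2L the 51 bins with PH-WT above S2 formed 45 runs and the 142 higher in S2 formed 123. By runs the share on 2L was 26.8% (20.7% to 33.9%), and none was computed for X. The share with PH-ML above PH-WT was 54.5% on 2L, against 49.4% on 3L (46.6% to 52.3%), 51.9% on X (47.9% to 55.9%) and 52.7% over all sequence (51.5% to 53.9%). Of the runs with PH-ML above PH-WT, 82.1% were a single bin on 2L, against 76.5% on 3L and 77.6% on X. Of those with S2 above PH-WT it was 85.4% on 2L, against 83.7% on 3L and 68.6% on X, and of those with PH-ML above S2 79.6% on 2L, against 75.7% on 3L and 89.7% on X. Long runs higher in PH-ML also occurred on the other arms. The longest with PH-ML above S2 had 16 bins on 2L, 10 on 3L and 6 on X. The longest with PH-ML above PH-WT had 16, 14 and 10 bins. These differences between arms were not tested, because no value per library was at hand, and none is called particular to 2L.

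**Figure D4:**
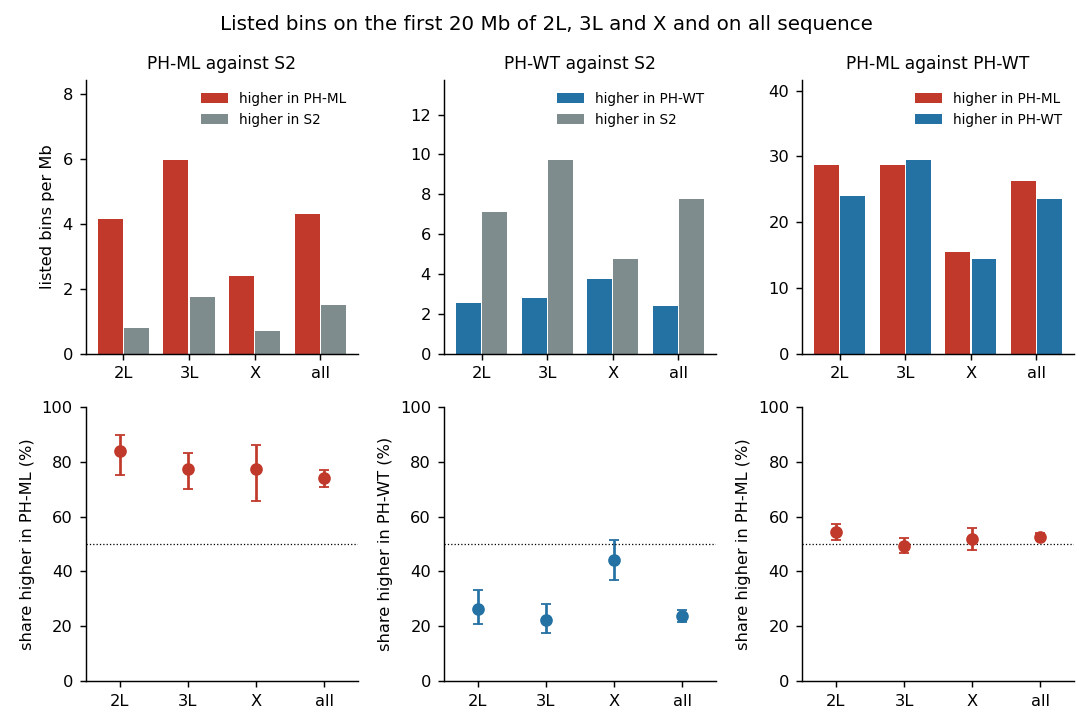
Listed bins per Mb by direction (top, bars from 0) and share of listed bins that is higher in the line named first, in % with 95% Wilson intervals (bottom), for the first 20 Mb of 2L, 3L and X and for all sequence. The share with PH-WT above S2 is 26.4% on 2L, against 44.1% on X. The intervals treat bins as independent.

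The end of the described part at 20 Mb is a choice of position. In the last window inside it, from 19 to 20 Mb, PH-ML against PH-WT had 30 bins higher in PH-ML and 30 in PH-WT, and in the next window outside it, from 20 to 21 Mb, 42 and 17. For PH-ML against S2 the windows held 1 and 4 bins, all higher in PH-ML. PH-WT against S2 gave 6 bins higher in PH-WT and 8 in S2 inside, and 2 and 10 outside. The last bin inside the limit on the list for PH-ML against PH-WT begins at 19865401 and the first outside it at 20064901, both higher in PH-WT.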

How the data were processed

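MNase-seq was done on 3 cell lines, and libraries were assigned to a line, an experiment and an MNase amount from their labels. Paired-end reads were aligned by the authors with Bowtie to dm3 and only unique reads were used. The authors then took the read frequency per 300-bp bin at every titration point, scaled by library size, and reported the GC-corrected regression slope as MACC. The deposited lists hold positions of bins called different and the name of the line with the higher MACC; their values are not a count, score or p-value per bin. Depth per library is unknown here.

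Python 3.11.15 was used to read all 8 lists, and every entry was checked to lie on a common 300-bp grid. The direction was taken from the 3 lists with both directions. Bins were counted in windows of 5 Mb, 1 Mb and 100 kb. Adjacent bins formed runs, and bins at most 10 kb apart formed stretches. Intervals were computed with statsmodels 0.14.6 and figures drawn with matplotlib 3.10.9. Run finding, window counts and pair counts were tested on simulated data with planted answers. The number of bins that the authors tested is not given in the sources used here, so shares refer to all bins of the grid up to the last listed position.

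Sites named are, per comparison and direction, the 3 longest runs (ties by position), the fullest stretch and the fullest windows of 1 Mb and 100 kb, besides the terminal 100 kb, the longest gap and the windows beside the limit of 20 Mb. The sequence and these rules were chosen with earlier results of these data known. The stretches from 5 to 7 Mb and from 12 to 14 Mb and other windows of 100 kb, and the runs tied in length with a named run, were picked after their values were seen. Genes were not assigned, because the gene table used here is of another genome release, and no dm3 sequence was used.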

Additional observations from a re-analysis of the deposited data

How the results depend on the processing

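Over 39 alternative values (runs of adjacent bins, regions within 1 kb, direction from the lists of a single direction, an end of the arm at 15 Mb or at the end of 2L, and leaving out the terminal 100 kb, the fullest window of 1 Mb or the windows from 5 to 7 Mb, the last chosen after seeing the data), 37 stayed within the interval of the share or within 1.5 times the density, and 0 changed direction. Only the shares could change direction, since a density has none. The share with PH-ML above PH-WT moved to 57.6% over all of 2L and to 58.9% without 5 to 7 Mb, against 54.5%. With an end at 15 Mb it was 53.3% (49.9% to 56.7%), an interval that reaches both sides of an even split. The lists of a single direction held the same bins as the lists with both directions, so that this alternative gave the same shares and is no independent value. No list of a single direction was used for bins with PH-ML above PH-WT, so that their direction came from the list with both directions in this alternative too. No paired analysis was possible because the lists pool both experiments and give no value per library. For the same reason no replicate could be left out. Depth per bin is unknown, so that a bin on no list cannot be read as unchanged.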
